A study of Homo sapiens with 3 samples.

Results

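Integrins are the cell surface receptors through which epithelial cells hold on to the extracellular matrix. Each receptor pairs an alpha with a beta subunit. The pair fixes the ligand, and the short cytoplasmic tail of most beta subunits binds talin, kindlin and other adaptors that link the receptor to actin. The beta 4 subunit instead has a long tail, which links the receptor to keratin filaments in hemidesmosomes. The genes described here are 10 integrin subunits used by epithelial cells. *ITGA2* encodes a collagen receptor subunit, *ITGA3* and *ITGA6* encode laminin receptor subunits, and *ITGA5* and *ITGAV* encode subunits that recognise the RGD motif of fibronectin and vitronectin. *ITGB1* is the common beta partner, *ITGB4* pairs with *ITGA6*, and *ITGB5*, *ITGB6* and *ITGB8* pair with *ITGAV*. Each gene was found through the transcript accession of its probes. All 10 genes were matched, by 11 of the 50599 gene probes, printed on 29 of the 58717 gene spots of each array. *ITGA6* had a pair of probes and the other 9 genes had 1 probe each.

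The cells were HCT116, an established colon cancer cell line of epithelial origin, which received control siRNA, siRNA #7 or siRNA #8 for 48 h. Both targeting siRNAs were designed against *HOXA5* short RNA, a transcript of the *HOXA6-HOXA5* locus that lacks the first *HOXA5* exon. Total RNA of each condition was labeled with Cy3 and hybridized to 1 array, so that there were 3 arrays in all, on 1 slide. The question put to the arrays here was how the integrin subunits stood after silencing, and whether they stood alike with both siRNAs. The siRNAs are shown because they cover nearly the same site. They share 17 of 21 bases, which are in capitals, and are offset by the remaining bases in lower case:

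siRNA #7: gagaAACUGAAAGACAACAUA

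siRNA #8: AACUGAAAGACAACAUAggcg

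With 1 array per condition no difference between conditions has a replicate check, and no ratio below carries a p-value. Precision is limited by that number of arrays. The error given with a ratio is the spot-to-spot SD of that ratio, taken from probes that the array carries 10 times. It covers the spotting and scanning of an array and leaves out the spread between cultures. Pooled over these probes, the spot-to-spot SD of log2 intensity ranged from 0.15 (siRNA #7) to 0.18 (control siRNA). The 75th percentile of the gene probes lay at an intensity of 52.8 for control siRNA, 42.1 for siRNA #7 and 42.8 for siRNA #8, and all levels below are multiples of that percentile, called relative intensities. A probe was measured if it was well above background on all 3 arrays, which held for 8 of the 11 integrin probes and for 12031 named genes. Of 7 epithelial marker genes, 6 were well above background on all arrays, of 5 leukocyte markers none was on any array, of 4 fibroblast markers 1 was on all arrays, and of 3 endothelial markers none was on all arrays. The single *HOXA5* probe had a log2 ratio to control siRNA of -0.36 (SD 0.25) with siRNA #7 and -0.23 (SD 0.26) with siRNA #8, each within 2 SDs. Whether this probe detects the short RNA was not tested, so it does not check the labels.

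In these cells 7 of the 10 integrin subunits were measured, namely *ITGA3*, *ITGA5*, *ITGA6*, *ITGAV*, *ITGB1*, *ITGB4* and *ITGB5*. Apart from *ITGAV* and *ITGB1*, printed 10 times, each probe rests on 1 spot per array. *ITGB4* differed most between arrays. Its level was 2.28-fold lower with siRNA #8 than with control siRNA and 2.88-fold lower than with siRNA #7. With siRNA #7 it was 1.26-fold higher than with control siRNA, a log2 ratio that became -0.021 under spike-in scaling. The log2 ratio of siRNA #8 to control siRNA became -0.83, under 2-fold, when the median deviation of neighbouring spots was removed. *ITGA6*, *ITGAV* and *ITGB1* were 1.22-fold to 1.65-fold lower with each siRNA than with control siRNA. *ITGA3* was 1.87-fold higher with siRNA #7 than with control siRNA, a log2 ratio of 0.90 that fell to 0.33 after the same removal. *ITGA5* lay within 2 spot-to-spot SDs in all 3 comparisons, except with siRNA #7 under spike-in scaling.

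**Figure D1:**
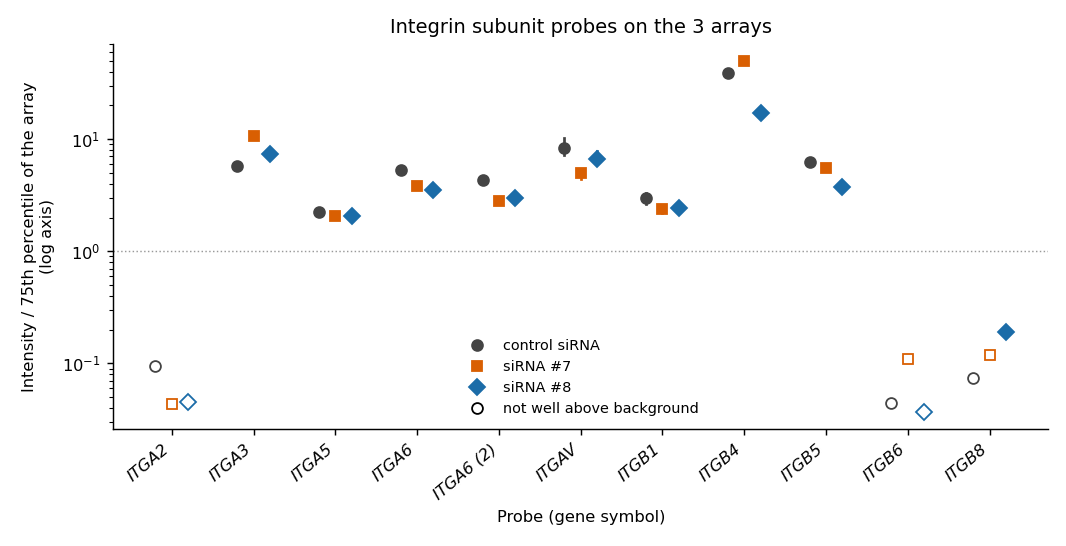
Relative intensity (intensity over the 75th percentile of the array, log axis) of each of the 11 integrin probes on the control siRNA, siRNA #7 and siRNA #8 arrays. Vertical bars span the 10 spots of *ITGAV* and *ITGB1*, open symbols are probes not well above background on that array, and "(2)" marks the second *ITGA6* probe. Only *ITGA2*, *ITGB6* and *ITGB8* have open symbols, and the siRNA #8 symbol of *ITGB4* (17.1) stands clearly below the others (39.0 and 49.2).

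Among the laminin receptor subunits, *ITGA3*, the partner of *ITGB1* in a receptor for laminins of the basement membrane, had relative intensities of 5.70 (control siRNA), 10.6 (siRNA #7) and 7.40 (siRNA #8). Both siRNA arrays were above the control array, and the siRNA #7 array was the highest. The log2 ratio to control siRNA was 0.90 (SD 0.16) with siRNA #7 and 0.38 (SD 0.18) with siRNA #8, and that of siRNA #8 to siRNA #7 was -0.52 (SD 0.16). These values rest on 1 spot per array, and the signal around that spot was uneven. Removing the median deviation of its 14 measured neighbouring spots moved the log2 level by 0.47 (control siRNA), -0.11 (siRNA #7) and -0.32 (siRNA #8). The ratio to control siRNA then became 0.33 with siRNA #7 and -0.42 with siRNA #8. The direction with siRNA #8 thus turned under this correction, while siRNA #8 stayed below siRNA #7 in each of the 11 processing alternatives (-0.74 to -0.41). Some of these alternatives, such as no filter on dim probes, cannot change the ratio of a gene with 1 probe.

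*ITGA6*, which pairs with *ITGB1* or, in hemidesmosomes, with *ITGB4*, was measured by a pair of probes. The brighter one had relative intensities of 5.35 (control siRNA), 3.82 (siRNA #7) and 3.52 (siRNA #8). The other one had 4.34, 2.80 and 3.01 in the same order. On both probes the control siRNA array was the highest. The log2 ratio to control siRNA with siRNA #7 was -0.48 (SD 0.16) on the brighter probe and -0.63 on the other. With siRNA #8 it was -0.60 (SD 0.18) on the brighter probe and -0.53 on the other. The order of the siRNA arrays differed between the probes, with a log2 ratio of siRNA #8 to siRNA #7 of -0.12 (SD 0.17) on the brighter probe and 0.10 on the other, each within 2 SDs. For the brighter probe the interval of 2 SDs around that ratio ran from -0.46 to 0.23.

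*ITGB4*, whose long cytoplasmic tail anchors the receptor to plectin and keratin filaments, had relative intensities of 39.0 (control siRNA), 49.2 (siRNA #7) and 17.1 (siRNA #8). Each value rests on 1 spot, and the siRNA #8 array stood apart from the other arrays. The log2 ratio of siRNA #8 was -1.19 (SD 0.16) to control siRNA and -1.52 (SD 0.15) to siRNA #7. The ratio of siRNA #7 to control siRNA was 0.34 (SD 0.14), and it was -0.021 when the arrays were scaled on their spike-in controls. Over 11 processing alternatives the ratio of siRNA #8 to control siRNA ran from -1.44 to -0.83, and that of siRNA #8 to siRNA #7, which does not use the control array, from -1.58 to -1.23. The value of -0.83, under 2-fold, came from the removal of the median deviation of 13 neighbouring spots. As *ITGB4* has 1 probe, some of the 11 alternatives, such as no filter on dim probes, could not change its ratios.

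Among the subunits of RGD-binding receptors, *ITGAV* was measured on 10 spots per array. Its spots ranged from 7.28 to 10.2 (median 8.21) with control siRNA, from 4.39 to 5.40 (median 5.06) with siRNA #7 and from 6.04 to 7.85 (median 6.65) with siRNA #8, in relative intensity. The siRNA #7 spots lay below all spots of the other arrays, whereas the control siRNA and siRNA #8 spots overlapped in range. The log2 ratio to control siRNA was -0.72 (SD 0.049) with siRNA #7 and -0.32 (SD 0.056) with siRNA #8. Compared spot by spot, all 10 spots were lower with each siRNA than with control siRNA. All 10 spots were also higher with siRNA #8 than with siRNA #7, with a log2 ratio of 0.40 (SD 0.052), so that the order was control siRNA, siRNA #8, siRNA #7, and each step was past 2 SDs. The spots of a probe share an RNA sample and an array, and they are not replicates of a condition.

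*ITGA5*, the alpha subunit of the main fibronectin receptor, had relative intensities of 2.23 (control siRNA), 2.07 (siRNA #7) and 2.07 (siRNA #8). The arrays lay within 2 spot-to-spot SDs of each other as reported, while under spike-in scaling the log2 ratio of siRNA #7 to control siRNA was -0.46, past 2 SDs. Its log2 ratio to control siRNA was -0.10 (SD 0.19) with siRNA #7 and -0.11 (SD 0.21) with siRNA #8, with intervals of 2 SDs from -0.49 to 0.29 and from -0.53 to 0.31.

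*ITGB5*, a partner of *ITGAV* in a vitronectin receptor, had relative intensities of 6.21 (control siRNA), 5.53 (siRNA #7) and 3.73 (siRNA #8). The siRNA #8 array was the lowest, and the other two lay within 2 SDs of each other, except under spike-in scaling (-0.52). The log2 ratio to control siRNA was -0.17 (SD 0.16) with siRNA #7 and -0.74 (SD 0.18) with siRNA #8. The ratio of siRNA #8 to siRNA #7 was -0.57 (SD 0.16).

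*ITGB1*, which joins many alpha subunits and is needed for most matrix adhesion, was also printed on 10 spots. Its spots ranged from 2.65 to 3.34 (median 2.97) with control siRNA and from 2.21 to 2.56 (median 2.38) with siRNA #7. With siRNA #8 the 9 spots without an outlier flag ranged from 2.29 to 2.60 (median 2.43). All control siRNA spots lay above all spots of both siRNA arrays, and the siRNA arrays overlapped. The log2 ratio to control siRNA was -0.32 (SD 0.052) with siRNA #7 and -0.29 (SD 0.059) with siRNA #8. Between the siRNA arrays it was 0.033 (SD 0.056), with an interval of 2 SDs from -0.08 to 0.15, and of 9 spots 4 were lower and 5 higher with siRNA #8.

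**Figure D2:**
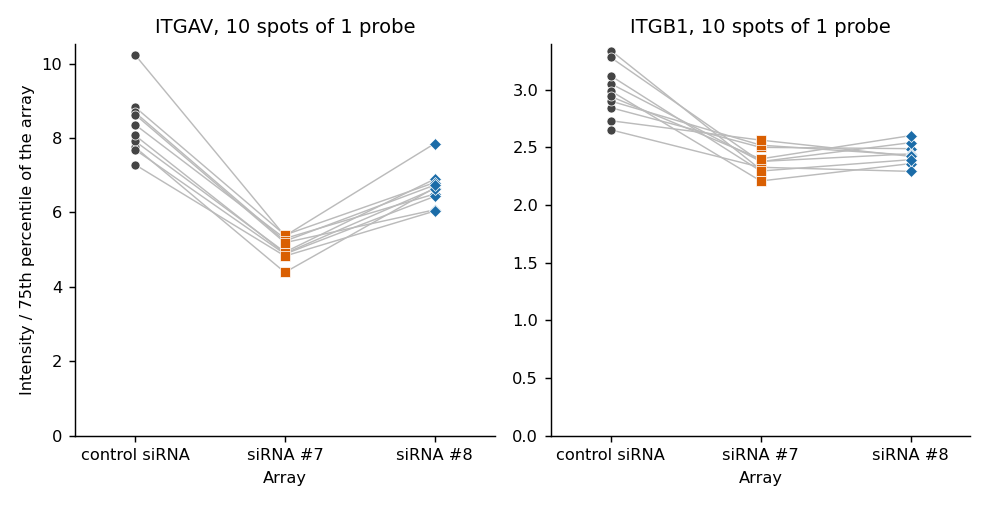
Relative intensity (intensity over the 75th percentile of the array) of the 10 spots of the *ITGAV* probe (left) and of the *ITGB1* probe (right) on each array. Grey lines join the same spot position across arrays, and 1 flagged *ITGB1* spot is left out with siRNA #8. All *ITGAV* spots are lowest with siRNA #7, and the *ITGB1* spots of both siRNA arrays overlap below those of control siRNA.

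The remaining 3 subunits were at the edge of detection. Each was read by 1 probe, and whether its transcript is absent from the cells was not tested. *ITGA2*, the collagen-binding partner of *ITGB1*, failed to rise well above background on each of the 3 arrays, its intensities being 4.99 (control siRNA), 1.82 (siRNA #7) and 1.92 (siRNA #8). *ITGB6*, whose pair with *ITGAV* binds latent TGF-beta, likewise stayed near background throughout, at intensities of 2.36, 4.58 and 1.59 in the same order. No fold is given for these genes. *ITGB8*, another partner of *ITGAV* in the binding of latent TGF-beta, had intensities of 3.92, 5.01 and 8.18 in the same order and was well above background with siRNA #8 only. Against the lowest signal well above background on the dimmer array, it was at least 1.65-fold higher with siRNA #8 than with control siRNA and at least 1.19-fold higher than with siRNA #7. Each bound rests on 1 dim spot and is smaller than 2 spot-to-spot SDs of the log2 ratio (SD 0.41 and 0.38), so no difference is read from it.

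Counted over the 7 measured subunits, the comparison of siRNA #7 with control siRNA gave no subunit past 2-fold, where 3.77% of the 12031 measured genes passed 2-fold in either direction. Past 2 spot-to-spot SDs, 2 subunits were higher (*ITGA3* and *ITGB4*) and 3 were lower (*ITGA6*, *ITGAV* and *ITGB1*), where 15.0% of all genes were higher and 14.7% lower by that rule. With siRNA #8 against control siRNA, 1 subunit, *ITGB4*, passed 2-fold, where 4.98% of all genes did. Past 2 SDs, 1 subunit was higher (*ITGA3*) and 5 were lower (*ITGA6*, *ITGAV*, *ITGB1*, *ITGB4* and *ITGB5*), beside 14.5% and 16.8% of all genes. Both of these comparisons share the control siRNA array. In the comparison of siRNA #8 with siRNA #7, which does not use that array, *ITGB4* alone passed 2-fold, where 5.64% of all genes did. Past 2 SDs, 1 subunit was higher with siRNA #8 (*ITGAV*) and 3 were lower (*ITGA3*, *ITGB4* and *ITGB5*), beside 17.1% and 20.1% of all genes. The SDs of *ITGAV* and *ITGB1* rest on 10 spots, so these genes pass the rule at smaller ratios. Only 902 of the 50599 gene probes were printed 10 times or more, so the shares of all genes rest mostly on other probes. With the siRNA #8 SD of *ITGB5* (0.18), printed once, *ITGAV* (-0.32) and *ITGB1* (-0.29) would lie within 2 SDs of control siRNA.

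The median log2 ratio of the 7 subunits was -0.17 with siRNA #7 and -0.32 with siRNA #8, each against control siRNA, and -0.12 for siRNA #8 against siRNA #7. The medians of all measured genes in these comparisons were 0.014, 0.0072 and -0.011. The direction of small differences depends on the scaling. With scaling on 10 spike-in probes in place of the 75th percentile, the median of all genes against control siRNA moved by -0.36 (siRNA #7) and -0.25 (siRNA #8), and that between the siRNA arrays by 0.11. Against control siRNA, the genes past 2-fold then split into 105 higher and 657 lower with siRNA #7, in place of 246 and 207, and into 120 and 719 with siRNA #8, in place of 235 and 364. For siRNA #8 against siRNA #7 they split into 407 and 286, in place of 276 and 403.

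**Figure D3:**
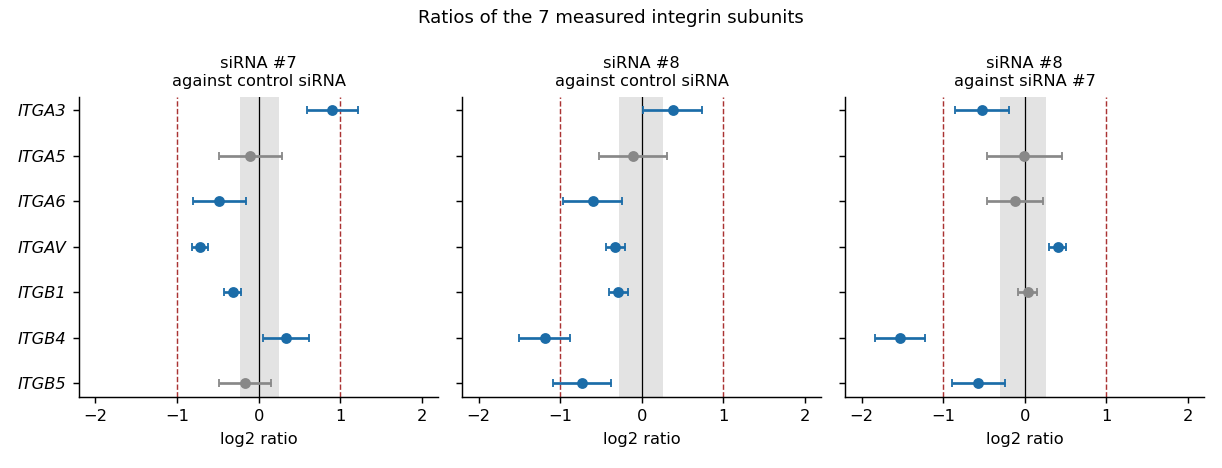
Log2 ratio of the 7 measured integrin subunits in the 3 comparisons. Bars are 2 spot-to-spot SDs, blue points are past 2 SDs and grey points are not, grey bands span the quartiles of all measured genes, and dashed lines mark 2-fold. *ITGB4* lies past the lower dashed line with siRNA #8 in both comparisons (-1.19 and -1.52) and to the right of 0 with siRNA #7 (0.34).

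The partners of a heterodimer did not always stand alike. This was read from the difference between the log2 ratios of the beta and the alpha subunit, since the levels of different probes cannot be set against each other. For the hemidesmosome pair *ITGA6* and *ITGB4*, the difference was 0.82 (SD 0.22) with siRNA #7, where *ITGA6* was lower and *ITGB4* higher than with control siRNA. With siRNA #8 it was -0.59 (SD 0.24), where both were lower and *ITGB4* had the more negative ratio. Between the siRNA arrays the difference was -1.41 (SD 0.23). For *ITGAV* and *ITGB5* the difference was 0.56 (SD 0.16) with siRNA #7, -0.41 (SD 0.19) with siRNA #8 and -0.97 (SD 0.17) between the siRNA arrays. *ITGAV* thus had the more negative ratio with siRNA #7 and *ITGB5* with siRNA #8. With siRNA #8 these differences shrank under some processing. The ratios were -0.40 (*ITGAV*) and -0.67 (*ITGB5*) under normexp. After removal of neighbouring spots they were -0.37 (*ITGA6*) and -0.83 (*ITGB4*). In both cases the order stayed, but the partners lay within 2 of the SDs given above. For *ITGA3* and *ITGB1* the difference was -1.22 (SD 0.16) with siRNA #7 and -0.66 (SD 0.19) with siRNA #8. It carries the unevenness around the *ITGA3* spot given above. After removal of neighbouring spots the ratios with siRNA #7 were 0.33 (*ITGA3*) and -0.35 (*ITGB1*). With siRNA #8 they were then -0.42 and -0.30, so the order of the partners turned. *ITGAV* and *ITGB1* differed by 0.40 (SD 0.071) with siRNA #7 and by 0.035 (SD 0.081) with siRNA #8. The pairs of *ITGB1* with *ITGA5* and *ITGA6* lay within 2 SDs in all 3 comparisons as reported. After removal of neighbouring spots the ratios with siRNA #7 were 0.062 (*ITGA5*) and -0.35 (*ITGB1*), just past 2 SDs of that pair (SD 0.20).

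**Figure D4:**
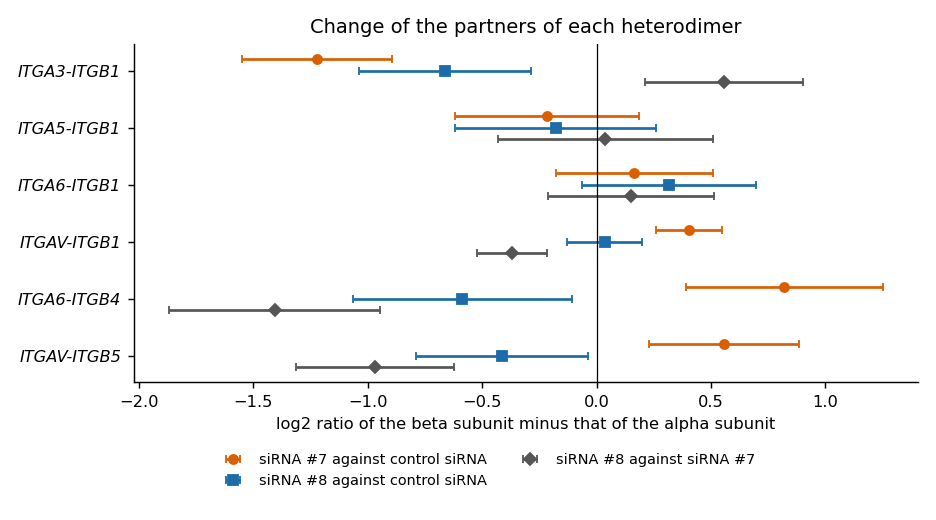
Difference between the log2 ratios of the beta and the alpha subunit for 6 integrin heterodimers with both subunits measured. Bars are 2 SDs of the difference, and colours and symbols give the comparison. For *ITGA6-ITGB4* and *ITGAV-ITGB5* the point lies to the right of 0 with siRNA #7 (0.82 and 0.56) and to the left of it with siRNA #8 (-0.59 and -0.41).

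The genes around the integrins were read from a list of 115 ligands, adaptors, inhibitors of activation, membrane partners, hemidesmosome components and trafficking genes, of which 92 were measured. With siRNA #7, 39 were higher and 53 lower than with control siRNA, with a median log2 ratio of -0.052. Past 2 SDs, 16 of the 92 were higher and 17 lower, beside 15.0% and 14.7% of all genes, and past 2-fold 2 were higher and 1 was lower, beside 3.77% of all genes in either direction. With siRNA #8, 47 were higher and 45 lower, with a median of 0.0049. Past 2 SDs, 12 of the 92 were higher and 20 lower, beside 14.5% and 16.8% of all genes, and past 2-fold 2 were higher and 4 lower, beside 4.98% of all genes. These counts lie near the background of all genes and are no result about the list. Of the 5 measured hemidesmosome genes and the 16 measured ligands, none passed 2-fold against control siRNA with either siRNA, which at those shares of all genes says little about groups of this size.

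The 8 listed genes that passed 2-fold against control siRNA with either siRNA were membrane partners, adaptors and trafficking genes. Among the membrane partners, *MET*, the receptor of hepatocyte growth factor, had relative intensities of 77.9 (control siRNA), 61.5 (siRNA #7) and 35.0 (siRNA #8). Against control siRNA its log2 ratio was -0.34 (SD 0.14) with siRNA #7 and -1.15 (SD 0.15) with siRNA #8, so that the siRNA #8 array was the lowest, as it was for *ITGB4*. *SDC1*, a heparan sulfate proteoglycan of epithelial cells, had a relative intensity of 21.7, 19.2 and 10.8 in the same order. Its ratio was -0.17 (SD 0.15) with siRNA #7 and -1.0 (SD 0.17) with siRNA #8. *CDCP1*, a transmembrane substrate of Src family kinases, had its lowest level with siRNA #7, with a relative intensity of 17.5, 8.25 and 14.5. Its ratio was -1.08 (SD 0.050) with siRNA #7 and -0.26 (SD 0.056) with siRNA #8.

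Among the adaptors, *TNS4*, a tensin that binds the tail of beta integrins, had relative intensities of 17.1 (control siRNA), 14.0 (siRNA #7) and 5.69 (siRNA #8). Against control siRNA its log2 ratio was -0.30 (SD 0.15) with siRNA #7 and -1.59 (SD 0.18) with siRNA #8. *TNS3*, another tensin, was dimmer, with relative intensities of 1.55, 2.05 and 3.82 in the same order. Its ratios were 0.40 (SD 0.25) with siRNA #7 and 1.30 (SD 0.24) with siRNA #8. *LIMS1*, the PINCH protein that binds integrin-linked kinase, was also dim, with relative intensities of 1.17, 2.60 and 0.61. It had a ratio of 1.15 (SD 0.23) with siRNA #7 and -0.95 (SD 0.34) with siRNA #8. Its siRNA #8 array was 4.29-fold below its siRNA #7 array. The ratio with siRNA #8 was -0.33 under normexp and -0.44 after removal of neighbouring spots, each within 2 SDs, and the lowest size of the log2 ratio between the siRNA arrays over the alternatives was -1.08. Of the trafficking genes, *RAB21*, a small GTPase of integrin endocytosis, had a ratio of -0.26 (SD 0.15) with siRNA #7 and -1.03 (SD 0.17) with siRNA #8. *RAB4A*, a small GTPase of endosome recycling, was 2.61-fold higher with siRNA #7 and 3.32-fold higher with siRNA #8 than with control siRNA. Its relative intensities were 1.17 (control siRNA), 3.05 (siRNA #7) and 3.89 (siRNA #8). Between the siRNA arrays, no listed gene was at least 2-fold higher with siRNA #8 and 3 of the 92 were at least 2-fold lower, beside 5.64% of all genes in either direction. These were *LIMS1* (-2.10, SD 0.30), *TNS4* (-1.30, SD 0.16) and *CCN1* (-1.07, SD 0.17), a matricellular integrin ligand named here after its values were seen. Against control siRNA, *TNS4* with siRNA #8, *CDCP1* with siRNA #7 and *RAB4A* with siRNA #8 stayed past 2-fold in each alternative that gave a value. The 2-fold calls of the other genes were lost in some, with log2 ratios down to 0.75 (*LIMS1* with siRNA #7), 0.71 (*TNS3*), -0.92 (*MET*), -0.82 (*RAB21*) and -0.95 (*SDC1*, each with siRNA #8), and 0.90 (*RAB4A* with siRNA #7). A signal of at least 100 gave no value for the dim genes *TNS3*, *LIMS1* and *RAB4A*. Some alternatives, such as no filter on dim probes, left the ratios as they were. Apart from *CDCP1*, the listed genes named here rest on a single spot per array.

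Of 16 other integrin subunits on the array, 3 were well above background on all arrays, 2 on some arrays and 11 on none. *ITGA7*, an alpha subunit of laminin receptors, had a log2 ratio to control siRNA of -0.11 (SD 0.16) with siRNA #7 and -0.14 (SD 0.18) with siRNA #8. *ITGAE*, the alpha subunit that binds E-cadherin, had ratios of -0.20 (SD 0.16) and -0.23 (SD 0.18). *ITGB7*, its beta partner, had a dim probe with ratios of -0.00076 (SD 0.40) and 0.47 (SD 0.41). None of these ratios was past 2 SDs as reported. Under spike-in scaling those of *ITGA7* (-0.47 with siRNA #7 and -0.39 with siRNA #8) and *ITGAE* (-0.56 and -0.48) were. After removal of neighbouring spots the *ITGA7* ratios turned to 0.11 and 0.080.

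**Figure D5:**
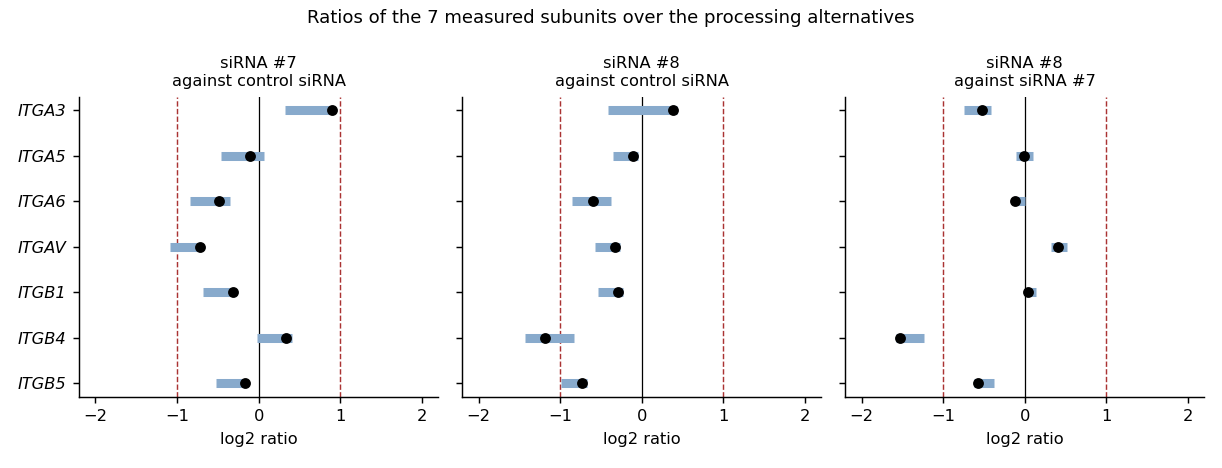
Log2 ratio of the 7 measured integrin subunits as reported (black points) and its range over 10 or 11 processing alternatives (blue bars), in the 3 comparisons, with 2-fold as dashed lines. The bars of *ITGAV*, *ITGB1* and *ITGB5* stay on 1 side of 0 in all comparisons, as do those of *ITGB4* with siRNA #8, while the bar of *ITGA3* for siRNA #8 against control siRNA crosses 0 (-0.42 to 0.43).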

How the data were processed

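Total RNA of HCT116 cells was measured on 1-colour SurePrint G3 arrays, 1 per condition. The authors deposited, for each spot, the processed signal intensity of Agilent Feature Extraction (11.5.1.1 in the file headers), background-subtracted and not scaled between arrays, with flags for outliers and for signal well above background. They also deposited a table of log2 values, used as an alternative. The numbers in the names of the siRNA files differ from the sample labels, and the labels were followed.

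Spots with an outlier flag (409, 413 and 313 on the control siRNA, siRNA #7 and siRNA #8 arrays) were left out, log2 intensities were averaged per probe, and the log2 of the array's 75th percentile over gene probes was subtracted. Probes were kept if well above background on all 3 arrays and at or above the 20th percentile on at least 2. The brightest kept probe represented a gene. Genes were named by accession through RefSeq (GRCh38.p14), so that 30004 of 50599 probes had a name. No coordinates are given, since the array design used an older build. Spot-to-spot SDs came from 620, 604 and 614 probes printed 10 times or more, pooled in 6 signal ranges. Genes were read by 2-fold and by 2 spot-to-spot SDs of the ratio, with no test. The limma alternative (limma 3.58.1, R 4.3.3) joined both siRNA arrays against control siRNA. Other steps used Python 3.11.15, numpy 2.4.6 and pandas 2.3.3, and the steps were tested on simulated data.

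The integrin subunits, the lists and the alternatives were chosen with earlier results of these data known. Named were all 10 subunits with every probe, listed genes past 2-fold and 2 SDs against control siRNA with either siRNA (at most 12), other integrin subunits well above background on all arrays, and *HOXA5*. Alternatives were the median of each array, quantile normalization, the 75th percentile over detected probes, spike-in scaling, normexp (offset 50, on median spot signals, since no mean signals were used here), removal of the median deviation of neighbours within 3 rows and 3 columns, the deposited log2 values, no filter, a signal of at least 100, the mean of a gene's probes, flagged spots kept, a 1.5-fold threshold and limma.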

Additional observations from a re-analysis of the deposited data

How the results depend on the processing

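No paired analysis was possible because there was only 1 array for every condition and the labels give no replicate numbers. Of the 228 alternative values of single integrin ratios, 199 moved by less than the spot-to-spot SD, 27 moved further and 2 were called values that turned: *ITGB4* with siRNA #7 against control siRNA under spike-in scaling (-0.021 in place of 0.34) and *ITGA3* with siRNA #8 against control siRNA after removal of neighbouring spots (-0.42 in place of 0.38). Of the genes around them, *RAB4A* for siRNA #8 against siRNA #7 turned after that removal (-0.053 in place of 0.35). Part of the 199 integrin values could not move. No filter and a signal of at least 100 only choose which probes enter, and they left these ratios as they were. The mean of a gene's probes can change only *ITGA6*, the 1 subunit with a pair of probes. Spike-in scaling moved the median of the integrins against control siRNA to -0.52 with siRNA #7 and to -0.57 with siRNA #8, and a signal of at least 100 moved that of siRNA #8 against siRNA #7 to -0.32. The count of integrins at least 2-fold from control siRNA with siRNA #7, 0 as reported, was 1 with spike-in scaling, 2 without the filter on dim probes and 2 at 1.5-fold. With siRNA #8, 1 as reported, it was 0 after removal of neighbouring spots, 3 without the filter and 3 at 1.5-fold. For siRNA #8 against siRNA #7, 1 as reported, it was 2 without the filter, and with both siRNAs against control siRNA, 0 as reported, it was 1. The cause of these changes was not tested, apart from what follows from the settings. Without the filter more genes are counted, at 1.5-fold the threshold is lower, and spike-in scaling adds 1 constant to every ratio of an array. A signal of at least 100 leaves out *ITGA5*, with intensities of 87.3 (siRNA #7) and 88.4 (siRNA #8), so that it no longer enters the median.

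With limma over 18121 probes and both siRNA arrays as 1 group, 0 of the 8 integrin probes had an adjusted p below 0.05 and 0 an unadjusted p below 0.05. Over all probes 1 had an adjusted p below 0.05 and 659 an unadjusted one. In that fit the lone control array is assumed to vary like the siRNA pair. Signal over background limits *ITGA2* and *ITGB6*, for which no ratio was read, and *ITGB8*, for which only bounds were given.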
